A study of Mus musculus with 5 samples.

Results

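The integrins and the proteins that couple them to actin were described across the libraries of sorted bone marrow Hardy fraction A. The genes were taken from the deposited table by symbol. Every symbol beginning Itga or Itgb was included apart from the Itgb1bp and Itgb3bp binding proteins, and 13 further adhesion genes were added by name (Tns1, Vcl, Tln1, Ptk2, Pxn, Zyx, Flna, Actn1, Ctnnd1, Cdh1, Cd44, Cd9 and Cd47). This gave 41 genes of 22098 in the table, namely 18 alpha subunits, 9 beta subunits (with the beta-like Itgb2l), Itgbl1, which is no subunit, and the 13 others. A gene with several RefSeq transcripts was represented by the transcript with the highest mean over the 5 libraries, which mattered for 11 genes.

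Hardy's scheme sorts developing B cells by surface markers, and fraction A is its first stage; these cells were not depleted of other lineages. All mice were C57BL/6 and 6 to 7 weeks old, and mRNA enriched from total RNA was sequenced. There were 2 libraries of wild type (wt), 2 of the mutant labelled Ikaros_ZnF1-/- (dF1) and 1 of the mutant labelled Ikaros_ZnF4-/- (dF4), which the series describes as of low coverage. Ikaros is a DNA-binding zinc finger protein needed for lymphoid cells, and the series concerns its effect on several blood lineages. The series calls the dF1 libraries biological replicates. Nothing states whether each wt library had its own mice, so the p-values below measure a spread that may be technical.

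Integrins are receptors made of an alpha and a beta chain that bind matrix proteins or counter-receptors on other cells, and the pairing decides the ligand. Talin binds the beta tail and switches the receptor on, and vinculin, filamin, alpha-actinin, tensin, paxillin and focal adhesion kinase join the complex that ties it to actin. In bone marrow, integrins hold progenitors to stroma and guide the exit of mature leukocytes, and several alpha chains are used as lineage markers.

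Levels are in RPKM, which divides reads by transcript length and by library size, so they can be compared between genes. Differences are on the log2(RPKM + 1) scale, which understates the change of low genes. The dF4 library stood apart, with a correlation to the others of 0.74 to 0.774 over all transcripts on the log2 scale, against 0.965 to 0.983 among the other 4. From the step between its low values it was estimated to hold 599000 reads, and the depth of the others is unknown. The labels call the cells pro-B, but over the wt and dF1 libraries the 12 plasmacytoid dendritic cell (pDC) markers summed to 4632.2 to 6291.6 RPKM and the 10 early B lineage markers to 353.3 to 516.6. In dF4 the pDC markers summed to 889.4 RPKM, the early B markers to 1405.1 and the 12 neutrophil markers to 33072 against 216.8 to 1056.3 elsewhere. The largest parts of the pDC sum in dF4 were Ly6d (311.8 RPKM) and Irf8 (215.8). Siglech was at 5.5 RPKM there against 785.2 to 936.2 in wt and dF1. Fewer cells of a type and less RNA per cell cannot be told apart in such bulk libraries.

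Of the 41 genes, 31 averaged 1 RPKM or more across the 5 libraries and were tested between dF1 and wt, and 26 averaged 5 RPKM or more and were compared between dF4 and wt. The other 10 lay below 1 RPKM on average. Among them Itgae, the partner of Itgb7 that binds E-cadherin, was at 0.2 to 0.3 RPKM in wt and dF1 and 2 in dF4. Itga9 was at 0.1 to 0.2 RPKM in wt and dF1 and 3.9 in dF4 (about 12 reads). Itga1 lay between 0.6 and 0.9 RPKM in every library. Itgb4 was at 0.5 to 0.7 RPKM and listed at 0 in dF4, where 3 reads would be 0.81 RPKM. Itgb8 and Itga8 reached at most 0.5 and 0.3 RPKM, both in dF4, and Itga7 at most 0.1. Itga11, Itgb6 and Itgbl1 were listed at 0 in every library.

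**Figure D1:**
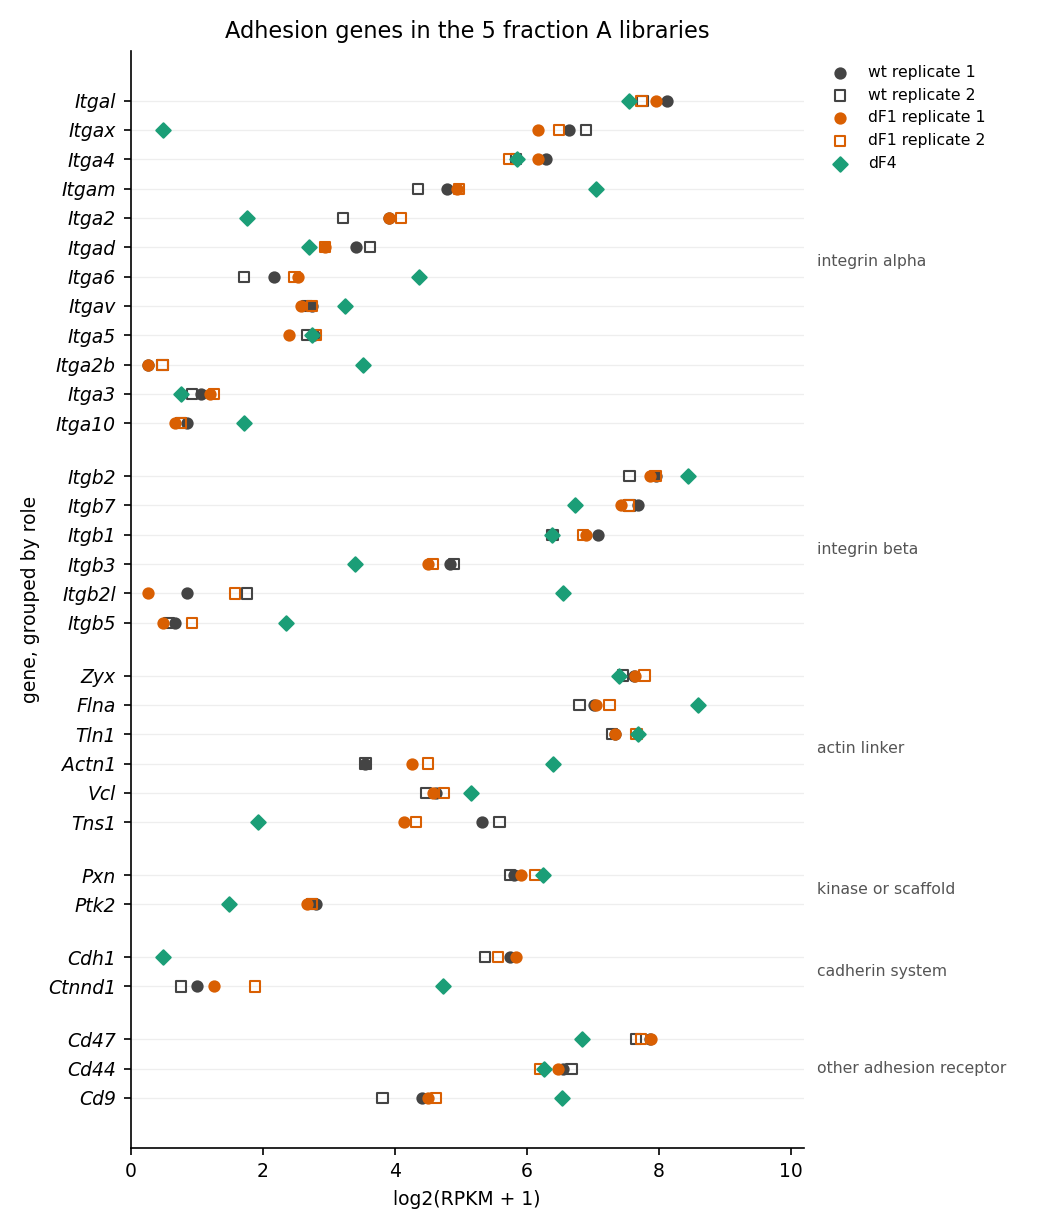
Levels of the 31 genes that averaged 1 RPKM or more, on a log2(RPKM + 1) axis, by role. Each point is a library (circles and squares are replicates 1 and 2 of wt and dF1, diamonds the dF4 library). The wt and dF1 points lie close together for most genes, and the dF4 point lies far to the left for Itgax and Cdh1 and far to the right for Itgb2l, Itga2b and Ctnnd1.

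The most abundant alpha chains in wt were Itgal, Itgax and Itga4. Itgal, the CD11a chain of LFA-1 that binds ICAM proteins, was at 279.7 and 215.3 RPKM across the wt libraries, 247.2 and 212.9 across the dF1 libraries and 186.5 for dF4. It took 53.3% and 48.4% of the summed alpha chain RPKM in wt and 42.6% in dF4. Itga4, whose pairs bind Vcam1, fibronectin and the gut addressin, was at 77.8 and 56.2 RPKM across the wt libraries, 71.5 and 52 across the dF1 libraries and 56.6 for dF4. The wt and dF1 ranges of both chains overlapped.

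Itgax, the CD11c chain that marks dendritic cells, was at 98.5 and 118.5 RPKM across the wt libraries, 70.8 and 89 across the dF1 libraries and 0.4 for dF4, which is about 1 read. Both dF1 libraries lay below both wt libraries, and dF4 lay far below all of them. The wt mean was 271-fold the dF4 value, with a 95% counting interval of 47.3 to 10406 that takes the wt mean as exact. Itgam, the CD11b chain of the myeloid complement receptor Mac-1, went the other way. It was at 26.8 and 19.4 RPKM across the wt libraries, 29.7 and 30.5 across the dF1 libraries and 131.8 for dF4 (372 reads, 95% interval 119 to 146 RPKM), 5.71-fold the wt mean. A second Itgam transcript of nearly equal length (NM_008401) was at 1 to 1.7 RPKM in wt and dF1 and 5.8 in dF4, and how reads were shared between the pair is not given. The 7 conventional dendritic cell markers summed to 1100 to 1757.8 RPKM in wt and dF1 and 4191.7 in dF4, of which Cd74 held 3207.6. Clec9a of that list was at 36.5 and 37.4 RPKM across the wt libraries, 11.3 and 10.5 across the dF1 libraries and 2.5 for dF4. The part of dendritic cells in the Itgax values was not tested.

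Itgam and Itgax are neighbours on chromosome 7, with 0 protein-coding genes between them in the GRCm38 annotation, and Itgad follows Itgax directly. The bases before their annotated starts are shown because these adjacent genes differed in opposite directions in dF4. Capitals mark GGGAA or its reverse complement TTCCC, the core of the sequence that Ikaros binds. The sequences are RefSeq's on GRCm38.p6, 250 bases each, on the plus strand at chr7:128129300-128129549 for Itgax and chr7:128062390-128062639 for Itgam.
Itgax: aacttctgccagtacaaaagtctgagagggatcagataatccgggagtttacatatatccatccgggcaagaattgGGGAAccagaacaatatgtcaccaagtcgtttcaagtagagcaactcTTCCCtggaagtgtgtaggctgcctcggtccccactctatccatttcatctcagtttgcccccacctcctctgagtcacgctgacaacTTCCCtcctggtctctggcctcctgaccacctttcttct
Itgam: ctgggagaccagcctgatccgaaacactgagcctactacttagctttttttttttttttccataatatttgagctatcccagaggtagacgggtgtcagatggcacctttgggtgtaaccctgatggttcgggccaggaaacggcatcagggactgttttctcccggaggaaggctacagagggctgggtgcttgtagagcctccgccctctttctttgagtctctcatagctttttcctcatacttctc
The Itgax window held 3 matches, starting 174, 127 and 39 bases before the start, and the Itgam window held 0. Of 32851 such windows in the RefSeq table, 56.2% held at least 1 match on either strand and 5.88% held 3 or more. Of the genes described here 30 had a window, and 16 of these (53.3%) held a match, which is close to the share of all windows. A match of these letters is a description and does not show binding, and 0 matches say only that the letters are not in this window.

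The remaining partner of Itgb2 is Itgad, the CD11d chain. It was at 9.7 and 11.4 RPKM across the wt libraries, 6.7 and 6.7 across the dF1 libraries and 5.5 for dF4. Itgad was below both wt libraries in dF1 and dF4 alike, and its difference of dF1 from wt was -0.58 (SE 0.15). Taken as shares of the 4 chains that pair with Itgb2, Itgax made up 23.8% and 32.5% across the wt libraries, 20% and 26.3% across the dF1 libraries and 0.12% for dF4. Itgam made up 6.46% and 5.32% across the wt libraries, 8.38% and 8.99% across the dF1 libraries and 40.6% for dF4. Itgal stayed the largest share in every library, from 57.5% in dF4 to 69.8% in dF1 replicate 1.

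**Figure D2:**
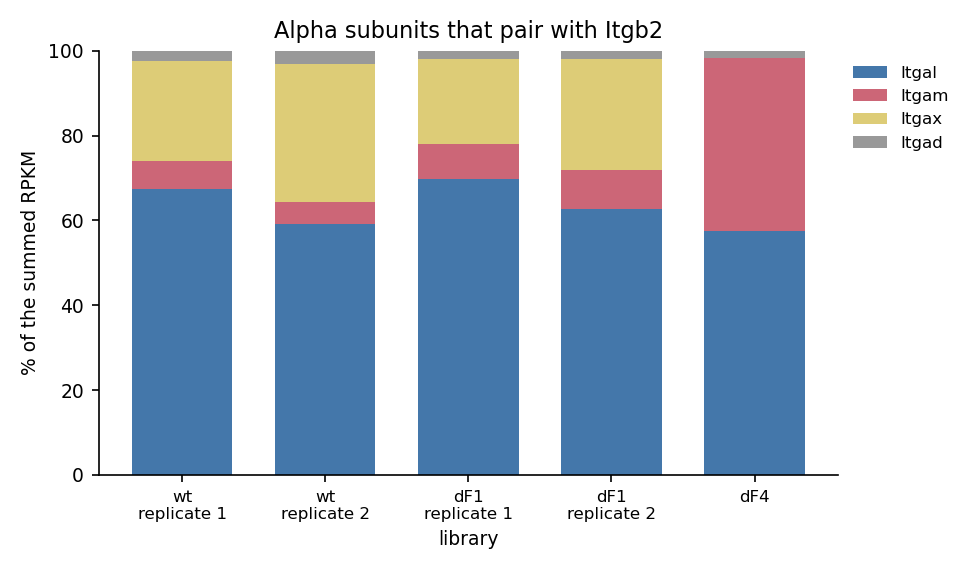
Share of each alpha chain that pairs with Itgb2 in the summed RPKM of the 4 chains, by library. Itgax fills 20% to 32.5% of the bar in wt and dF1 and 0.12% in dF4, where Itgam fills 40.6%.

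Itga2, the collagen receptor chain CD49b that NK cells and platelets carry, was at 14.1 and 8.3 RPKM across the wt libraries, 14.1 and 16.1 across the dF1 libraries and 2.4 for dF4 (about 6 reads). The dF4 value lay below the lowest of the others, and wt and dF1 overlapped. The 9 NK cell markers summed to 1186.9 and 578.8 RPKM across the wt libraries, 1444.1 and 1238.2 across the dF1 libraries and 374.7 for dF4. The 9 megakaryocyte and platelet markers went the other way, from 1.2 to 1.6 RPKM in wt and dF1 to 39.3 in dF4. The part of either cell type in the Itga2 values was not tested. Itga6, a laminin receptor chain, was at 3.5 and 2.3 RPKM across the wt libraries, 4.8 and 4.6 across the dF1 libraries and 19.7 for dF4 (50 reads). Both dF1 libraries exceeded both wt libraries for Itga6, and dF4 exceeded all 4.

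Itgav, a chain of vitronectin receptors, lay between 5 and 5.7 RPKM in wt and dF1 and at 8.5 in dF4. Itga5, the fibronectin receptor chain, lay between 4.3 and 6 RPKM in all 5 libraries. Itga3 was at 1.1 and 0.9 RPKM across the wt libraries, 1.3 and 1.4 across the dF1 libraries and 0.7 for dF4 (about 2 reads). Itga10 was at 0.6 to 0.8 RPKM in wt and dF1 and at 2.3 in dF4 (about 7 reads). Itga2b, the chain that with Itgb3 forms the platelet fibrinogen receptor, was at 0.2 and 0.4 RPKM in both wt and dF1 and at 10.5 in dF4 (22 reads, interval 6.64 to 16). Of 9 megakaryocyte and platelet markers, 0 averaged 5 RPKM or more. With no filter on level, 4 were at least 1 log2 unit above both wt libraries in dF4, among them Pf4 at 19.9 RPKM against 0.2. The share of all transcripts under that rule is not given. Another 3 were listed at 0 in dF4 (Gp5, Gp6 and Gp9). The list summed to 39.3 RPKM in dF4 and 1.2 to 1.6 elsewhere, and its part in the Itga2b value was not tested.

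Among the beta chains, Itgb2, the CD18 chain shared by the leukocyte integrins, was at 248.2 and 187.5 RPKM across the wt libraries, 233.1 and 246.8 across the dF1 libraries and 348.4 for dF4 (interval 321 to 377). Its dF4 difference of 0.69 was under 1, while those of its partners Itgam and Itgax were 2.48 and -6.28. Itgb7, which pairs with Itga4 for homing to gut, was at 205.8 and 187.7 RPKM across the wt libraries, 172.3 and 187.3 across the dF1 libraries and 105.4 for dF4 (interval 90.3 to 123). Itgb7 took 33.3% and 38.3% of the summed beta chain RPKM in wt and 16.4% in dF4. Itgb1, the partner of most matrix-binding alpha chains, was at 135 and 83 RPKM across the wt libraries, 118.1 and 115.2 across the dF1 libraries and 82.4 for dF4, so both dF1 libraries lay between the wt libraries and dF4 lay just below the lower of them.

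Itgb3, the partner of Itgav and Itga2b, was at 27.6 and 28.8 RPKM across the wt libraries, 21.7 and 23 across the dF1 libraries and 9.6 for dF4 (33 reads, interval 6.55 to 13.4). The 3 genotypes did not overlap for Itgb3, with wt highest. The dF1 mean was 0.793 of the wt mean (28.2 ± 0.849 RPKM in wt and 22.4 ± 0.919 in dF1, SD, n = 2 each). Itgb3 and its partner Itga2b thus lay on opposite sides of wt in dF4. Itgb5 was at 0.4 to 0.9 RPKM in wt and dF1 and 4.1 in dF4 (about 8 reads).

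Itgb2l, also called pactolus, is a relative of Itgb2 known from neutrophils. It was at 0.8 and 2.4 RPKM across the wt libraries, 0.2 and 2 across the dF1 libraries and 93 for dF4 (147 reads, interval 78.7 to 110 RPKM). Replicate 2 was higher than replicate 1 in both genotypes. The neutrophil marker sum was likewise 396.1 and 1056.3 RPKM across the wt libraries, 216.8 and 834.9 across the dF1 libraries and 33072 for dF4, with 0 of its 12 markers listed at 0 in dF4. The 7 monocyte and macrophage markers summed to 113.2 to 206.3 RPKM in wt and dF1 and 1369.5 in dF4. Lyz2 alone held 1124.3 RPKM of the dF4 sum. Csf1r, F13a1 and Cd14 were also higher in dF4, while Ccr2, Cx3cr1 and Ms4a6c lay less than 1 log2 unit from the wt mean. Csf1r, F13a1 and Cd14 had wt means of 3.95, 3.95 and 0.5 RPKM and averaged 5 RPKM only through their dF4 level. Of the 6 monocyte and macrophage markers that averaged 5 RPKM or more, 4 were higher by at least 1 log2 unit, against 7.72% of all transcripts considered. The part of neutrophil and monocyte RNA in the dF4 values of Itgb2l and Itgam was not tested.

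Among the actin linkers, Zyx, Tln1 and Flna were the most abundant in wt. Tln1, which encodes talin, was at 160.4 and 155.7 RPKM across the wt libraries, 161.7 and 201.8 across the dF1 libraries and 205.7 for dF4. Zyx, which encodes the stress fibre protein zyxin, was at 197.2 and 175.1 RPKM across the wt libraries, 198.3 and 219.8 across the dF1 libraries and 167.6 for dF4. Vcl, which encodes the talin-binding vinculin, was at 23.6 and 21.2 RPKM across the wt libraries, 22.9 and 26 across the dF1 libraries and 34.8 for dF4. None of Tln1, Zyx and Vcl passed the dF1 test or lay 1 log2 unit from wt in dF4.

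Tns1 and Actn1 were the linkers with the widest differences in dF1. Tns1 (NM_027884), which encodes tensin, a protein that joins the beta tail to actin, was at 38.9 and 47.2 RPKM across the wt libraries, 16.6 and 19 across the dF1 libraries and 2.8 for dF4 (17 reads, interval 1.65 to 4.55). The wt libraries were highest and dF4 lowest, with no overlap, and the wt mean (43.05 ± 5.87 RPKM, SD, n = 2) was 2.42-fold the dF1 mean (17.8 ± 1.70, n = 2) and 15.4-fold the dF4 value. Actn1 (NM_134156), which encodes an alpha-actinin that crosslinks actin, was at 10.7 and 10.8 RPKM across the wt libraries, 18.2 and 21.8 across the dF1 libraries and 83.7 for dF4 (188 reads, interval 72 to 96.3). The order was the reverse of that of Tns1, with dF1 1.86-fold and dF4 7.79-fold the wt mean. The dF1 and dF4 differences share the wt libraries.

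The windows before the starts of these genes are shown because these were the 2 adhesion genes with the smallest p in dF1 and differ in opposite directions. They are on the minus strand of GRCm38.p6, at chr1:74124549-74124798 for Tns1 and chr12:80260364-80260613 for Actn1, with the same letters in capitals.
Tns1: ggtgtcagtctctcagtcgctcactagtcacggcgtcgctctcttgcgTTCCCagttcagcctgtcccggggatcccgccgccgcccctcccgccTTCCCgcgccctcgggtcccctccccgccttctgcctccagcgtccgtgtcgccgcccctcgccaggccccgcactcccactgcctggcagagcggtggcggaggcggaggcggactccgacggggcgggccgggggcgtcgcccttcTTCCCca
Actn1: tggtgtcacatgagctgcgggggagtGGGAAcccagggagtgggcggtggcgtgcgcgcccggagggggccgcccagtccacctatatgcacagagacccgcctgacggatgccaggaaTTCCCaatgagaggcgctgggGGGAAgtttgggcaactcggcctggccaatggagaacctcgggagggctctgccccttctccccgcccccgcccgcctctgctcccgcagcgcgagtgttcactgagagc
Each held 3 matches, starting 202, 155 and 7 bases before the start in Tns1 and 224, 131 and 110 in Actn1. Of all such windows 5.88% held 3 or more. The windows printed were picked by the differences of their genes, so their match counts say nothing of the adhesion genes as a whole, and binding was not tested.

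Flna, which encodes the actin crosslinker filamin A, was at 128.3 and 110.6 RPKM across the wt libraries, 131.4 and 152 across the dF1 libraries and 385.4 for dF4 (1937 reads, interval 368 to 403). It was the best counted of these genes in dF4 and was 3.23-fold the wt mean there. Pxn, which encodes the scaffold paxillin, was at 54.9 and 52.8 RPKM across the wt libraries, 59.2 and 69 across the dF1 libraries and 75.2 for dF4. Ptk2, which encodes focal adhesion kinase, was at 6 and 5.7 RPKM across the wt libraries, 5.4 and 5.7 across the dF1 libraries and 1.8 for dF4 (about 4 reads, interval 0.5 to 4.71). A second Ptk2 transcript (NM_007982) was at 2.6 and 1.8 RPKM across the wt libraries, 2.9 and 3.1 across the dF1 libraries and 1.7 for dF4, which was again the lowest but close to wt replicate 2.

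The cadherin genes went opposite ways in dF4. Cdh1, which encodes the homophilic receptor E-cadherin, was at 52.7 and 40.5 RPKM across the wt libraries, 56.1 and 46.4 across the dF1 libraries and 0.4 for dF4 (about 1 read). The wt mean was 117-fold the dF4 value, with a counting interval of 22.2 to 4882 that takes the wt mean as exact, and wt and dF1 overlapped. Ctnnd1 (NM_001085448), which encodes p120-catenin, a stabiliser of cadherins at the membrane, was at 1 and 0.7 RPKM across the wt libraries, 1.4 and 2.7 across the dF1 libraries and 25.5 for dF4 (81 reads). A second Ctnnd1 transcript (NM_001085449) gave the same order, at 0.4 and 0.3, 0.6 and 1.2, and 12.7 RPKM.

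Among the other receptors, Cd47, the ligand by which cells restrain phagocytes through Sirpa, was at 232.4 and 201.4 RPKM across the wt libraries, 234.7 and 212.1 across the dF1 libraries and 113.3 for dF4 (interval 95.1 to 135). Cd44, the hyaluronan receptor, was at 93.2 and 101.5 RPKM across the wt libraries, 87.8 and 73.1 across the dF1 libraries and 75.9 for dF4. Cd9, a tetraspanin that gathers integrins in the membrane, was at 20.4 and 13.1 RPKM across the wt libraries, 21.7 and 23.8 across the dF1 libraries and 92.3 for dF4 (66 reads, interval 71 to 117). Cd9 in dF4 was 5.51-fold the wt mean, and Cd47 was 0.522 of it.

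**Figure D3:**
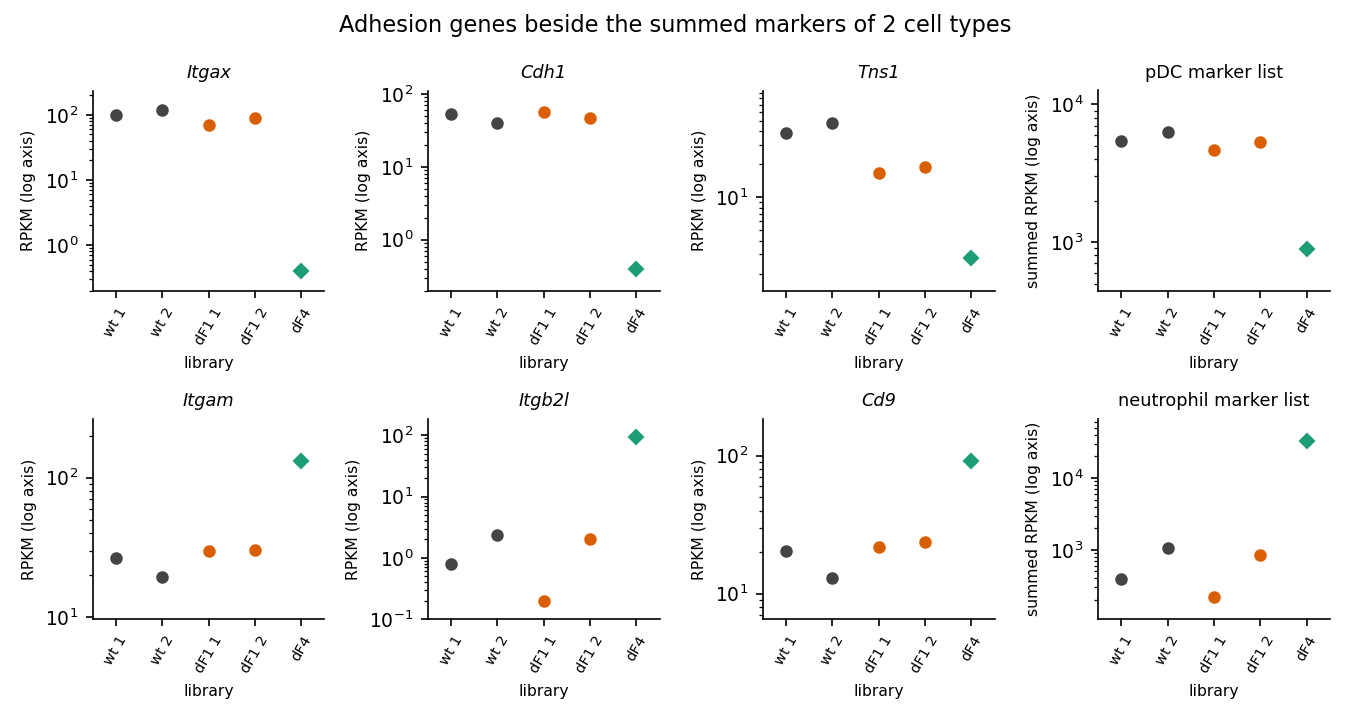
RPKM of 6 adhesion genes by library, on log axes, beside the summed RPKM of the 12 pDC markers and of the 12 neutrophil markers. Itgax, Cdh1, Tns1 and the pDC sum have their lowest point in dF4, and Itgam, Itgb2l, Cd9 and the neutrophil sum have their highest point there.

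Between dF1 and wt, 0 of the 31 tested genes passed limma at an adjusted p of 0.05, where the share of all 12215 transcripts called was 0%. Their limma adjusted p lay between 0.193 (Tns1) and 1. At an unadjusted p under 0.05, Actn1, Itga6 and Ctnnd1 were higher in dF1 (3 of 31, against 3.11% of all transcripts), and Tns1, Itgad, Itgb3 and Itgax were lower (4 of 31, against 4.05%). The dF1 difference was -1.22 (SE 0.15) for Tns1, 0.83 (SE 0.14) for Actn1, 0.69 (SE 0.25) for Ctnnd1 and 0.56 (SE 0.20) for Itga6. It was -0.44 (SE 0.17) for Itgax and -0.32 (SE 0.11) for Itgb3. Leaving out 1 library moved it to 0.38 for Ctnnd1 (without dF1 replicate 2), 0.34 for Itga6 (without wt replicate 2) and -0.28 for Itgax (without dF1 replicate 1). Tns1 was the sole adhesion gene called under any alternative, with a limma adjusted p of 0.0384 among transcripts of at least 5 RPKM and 0.0302 with robust variances, and 0.108 to 0.931 under the other pseudocounts and scalings, with no filter, with the replicate block and without each library.

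Both dF1 libraries lay above both wt libraries for 10 of the 31 genes (16.8% of all transcripts did), and below both for 6 (17.9%), and 15 overlapped. The 10 were Actn1, Ctnnd1, Itga6, Cd9, Itgam, Flna, Pxn, Itga3, Tln1 and Zyx. The 6 were Tns1, Itgad, Itgax, Itgb3, Cd44 and Itgb7. The 10 are 32.3% and the 6 are 19.4% of the 31 genes, so the share below was close to that of all transcripts. Because the genes were chosen with earlier results of these data known, the share above cannot be read as an excess. The median difference over the 31 genes was 0.074, against 0.007 over all transcripts tested, and without wt replicate 2 it was -0.046. Itga2b, Itgb5 and Itga10 were among the 31 only through their dF4 level. With the filter on wt and dF1 only, an alternative that was not planned, the median was 0.129. Of the 12 pDC markers 3 were lower in dF1 at an unadjusted limma p under 0.05, against 4.05% of all transcripts tested. Of the 7 conventional dendritic cell markers 6 were tested and 1 was lower (Clec9a). Of the 6 mature B and plasma cell markers 5 were tested and 3 were lower. The 6 summed to 34.6 and 41.9 RPKM in the wt libraries and 16.9 and 17.9 in the dF1 libraries. The part of these cells in the dF1 differences was not tested.

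In dF4, which has no replicate and hence no test, a gene was counted as different when it lay at least 1 log2 unit beyond both wt libraries. Of the 26 genes that averaged 5 RPKM or more, 7 were higher (26.9%, against 7.72% of the 8759 transcripts considered) and 5 were lower (19.2%, against 9.34%). The genes were chosen with earlier results of these data known, so these shares cannot be read as an excess. The higher genes were Itgb2l (difference from the wt mean 5.25), Ctnnd1 (3.85), Actn1 (2.85), Itgam (2.48), Cd9 (2.43), Itga6 (2.43) and Flna (1.69). The lower genes were Itgax (-6.28), Cdh1 (-5.08), Tns1 (-3.53), Itga2 (-1.80) and Itgb3 (-1.46). Each of these 12 also lay at least 1 log2 unit beyond all 4 wt and dF1 libraries, as did 6.31% of the transcripts considered on the higher side and 7.99% on the lower.

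The filter includes dF4, so Itgb2l, Ctnnd1 and Itga6 entered only through their dF4 level and had to differ. With the filter on the wt mean instead, which was tried once the values were known, 4 of 24 genes were higher (Actn1, Cd9, Flna and Itgam), against 4.96% of the 8560 transcripts then considered, and 6 were lower, Ptk2 being the added one, against 10.6%. The median difference was -0.07 over the 26 genes and -0.29 over the 24, while over all transcripts considered it was 0.003 with the first filter and -0.045 with the second. By the same distance from wt and with the first filter, 10 of the 12 pDC markers and 2 of the 9 NK markers were lower, against 9.34% of all transcripts considered. Of the pDC markers 2 were listed at 0 in dF4 (Cox6a2 and Cd300c). Of the 7 conventional dendritic cell markers 4 passed the first filter. Clec9a was lower (1 of 4, against 9.34%), and H2-Ab1, Cd74 and Ciita were higher (3 of 4, against 7.72%). All 11 neutrophil markers that passed the first filter were higher, against 7.72%, though Prtn3 and Ctsg had a wt mean under 5 RPKM. The part of these cell types in the differences of the adhesion genes was not tested.

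**Figure D4:**
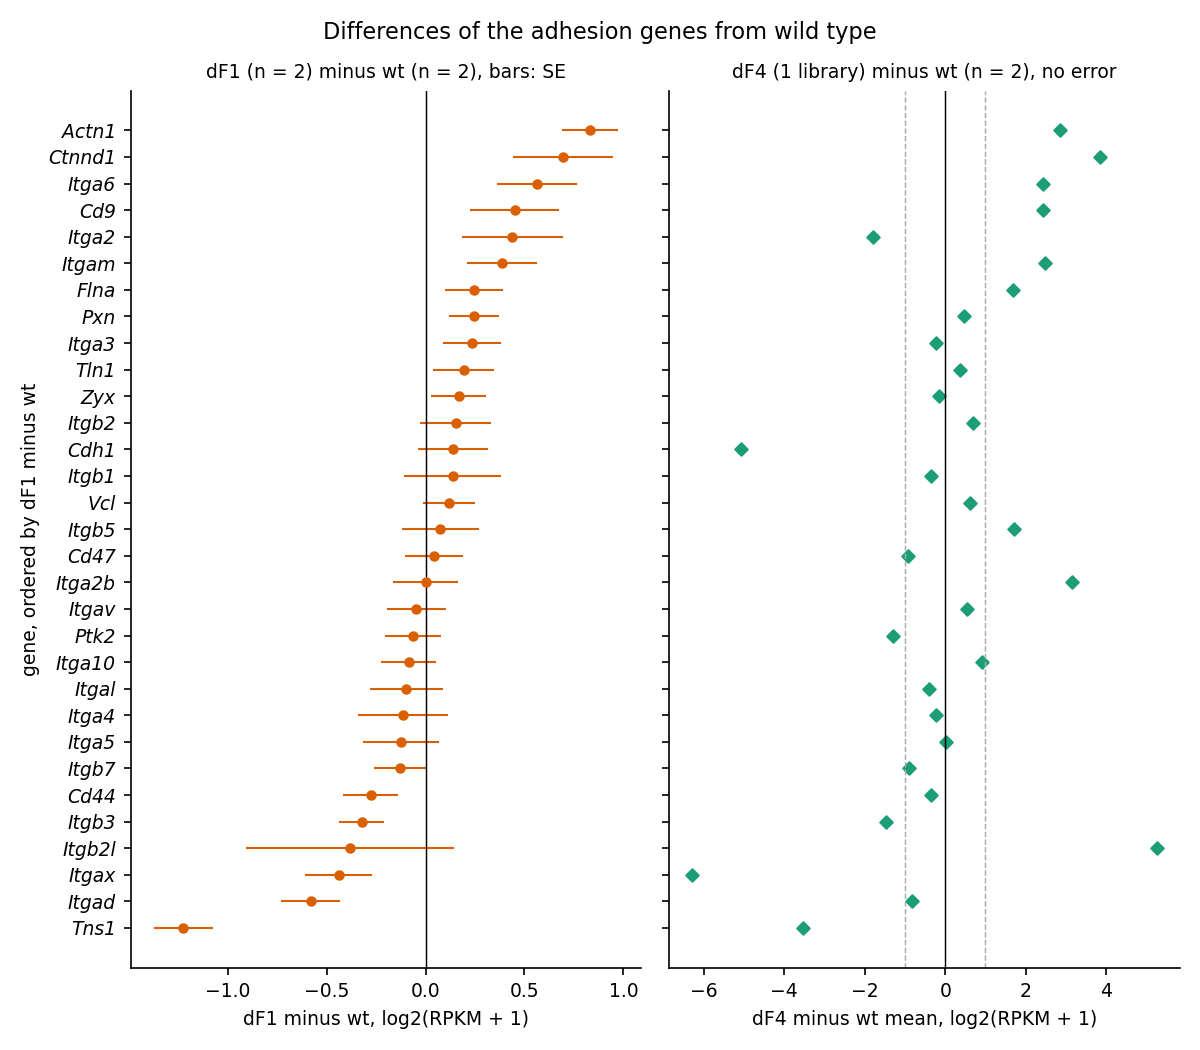
Differences from wt on the log2(RPKM + 1) scale for the 31 genes, ordered by dF1 minus wt. The left panel shows dF1 (n = 2) with limma's SE, from -1.22 for Tns1 to 0.83 for Actn1, and the right panel the single dF4 library, with dashed lines at a difference of 1 either way and a span from -6.28 for Itgax to 5.25 for Itgb2l.

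The rest of the adhesion machinery was read from lists of activators, kinases, actin linkers, ligands, cadherin partners, tetraspanins and the partners of CD47 and CD44. Of their 119 genes in the table, 85 were tested in dF1 and 0 passed limma's adjusted threshold. At an unadjusted limma p under 0.05, 5 were higher (against 3.11% of all transcripts tested) and 4 were lower (against 4.05%). Of the 71 considered in dF4, 10 were higher (against 7.72% of all transcripts considered) and 4 were lower (against 9.34%). Of those 10, Pak1, Pdlim7, Fn1, Spp1 and Tspan33 had a wt mean under 5 RPKM, and with the filter on the wt mean 5 of 65 were higher and 4 were lower, against 4.96% and 10.6%. Under that filter the median absolute dF4 difference was 0.46 over the 65, 0.86 over the 24 integrin and focal adhesion genes and 0.44 over all transcripts considered. The genes and lists were chosen with earlier results of these data known. These medians therefore cannot show whether adhesion genes differ more than others.

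Of 16 activators and adaptors of integrins considered in dF4, 0 were higher (against 7.72% of all transcripts considered) and 1 was lower (against 9.34%). The lower gene was Fyb, an adaptor of immune cell adhesion. Fyb was at 179.5 and 238.5 RPKM across the wt libraries, 158.8 and 151.1 across the dF1 libraries and 38.4 for dF4. Fermt3, the kindlin of blood cells, was at 114.1 and 127.6 RPKM across the wt libraries, 112.2 and 133.6 across the dF1 libraries and 152.6 for dF4, while Fermt2 reached at most 1 RPKM and Fermt1 was listed at 0. Of 17 kinases and scaffolds considered, 1 was higher (against 7.72%) and 1 was lower (against 9.34%). Pak1, a kinase activated by Rac and Cdc42, was higher (3.8 and 3.2 RPKM across the wt libraries, 4.8 and 7.3 across the dF1 libraries and 15.8 for dF4). Its wt mean was under 5 RPKM, and with the filter on the wt mean 0 of 16 were higher. Fyn, a Src family kinase, was lower (239 and 213.9 RPKM in wt and 77.9 in dF4).

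Of 14 further actin linkers 4 were higher in dF4 (against 7.72% of all transcripts considered) and 0 lower (against 9.34%). With the filter on the wt mean, which left out Pdlim7, 3 of 13 were higher (against 4.96%). The 4 were Pdlim7 (1.5 and 1.8 RPKM in wt and 18.7 in dF4), Actn4, a second alpha-actinin (66.1 and 57, and 147.3), Vim (271.1 and 233.6, and 562.4) and Vasp, an actin polymerase (91 and 79.8, and 190.9). Tns3, a relative of Tns1, was at 18.1 and 19.3 RPKM across the wt libraries, 10.8 and 13.1 across the dF1 libraries and 9.8 for dF4. Its dF1 difference was -0.61 (SE 0.15, limma adjusted p = 0.486), and its dF4 difference of -0.87 was under 1 in size.

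Among the integrin ligands, 5 were considered in dF4 and 2 were higher (against 7.72% of all transcripts considered). The 2, fibronectin (Fn1, 2.8 and 3.1 RPKM in wt and 33.9 in dF4) and osteopontin (Spp1, 3 and 4.6, and 22.6), both had a wt mean under 5 RPKM. With the filter on the wt mean 0 of 3 were higher or lower. Thbs1, which encodes thrombospondin, a ligand of CD47, was at 1.4 and 1.6 RPKM across the wt libraries, 0.1 and 0.4 across the dF1 libraries and 10.9 for dF4. It had the smallest p of these lists in dF1 (limma adjusted p = 0.31). Thbs1 averaged under 1 RPKM over wt and dF1 and was tested only through its dF4 level. Icam1, the counter-receptor of Itgal, was at 37.9 and 39.7 RPKM across the wt libraries, 58.3 and 48.8 across the dF1 libraries and 40 for dF4. The 7 stromal markers summed to 1.9 to 12.6 RPKM in wt and dF1 and 98.4 in dF4, and their part in the ligand values was not tested.

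Of 5 cadherin partners considered, 1 was lower in dF4 (against 9.34% of all transcripts considered). It was the endothelial cadherin Cdh5 (47.8 and 40.1 RPKM across the wt libraries, 63.9 and 82.6 across the dF1 libraries and 9.7 for dF4). Of the catenins that link Cdh1 to actin, Ctnnb1 was at 124.7 and 113.3 RPKM across the wt libraries and 86.9 for dF4, and Ctnna1 at 64.8 and 62.7 and at 46.2. Of 13 tetraspanins 3 were higher (against 7.72%) and 1 was lower (against 9.34%). With the filter on the wt mean, which left out Tspan33, 2 of 11 were higher (against 4.96%). The 3 were Tspan33 (0.4 and 1.7 RPKM in wt and 39.2 in dF4), Cd81 (8.6 and 5.8, and 70.3) and Tspan32 (21.1 and 10.5, and 60.3). The tetraspanin Tspan13 was lower, at 170.9 and 155.5 RPKM in wt and 28 in dF4. Of 4 partners of CD47 and CD44 considered 1 was higher, Spp1 (against 7.72%), and with the filter on the wt mean 0 of 3 were. Sirpa, the receptor for Cd47, was at 97.1 and 118 RPKM across the wt libraries, 95 and 93.2 across the dF1 libraries and 73.1 for dF4.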

How the data were processed

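RNA from 5 libraries of sorted fraction A cells was sequenced. The deposited values are RPKM for each RefSeq transcript, written to 1 decimal, per the file headers. Per the submitters' processing notes the authors used TopHat, bedtools and the mm9 build; neither versions nor settings, strandedness or how reads common to several transcripts were assigned were found in the labels. The column of transcript lengths is the authors' and is no measurement. The table held 26531 transcripts of 22098 symbols, and 1 further line that named no gene was left out.

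The dF1 and wt libraries were compared on log2(RPKM + 1) by limma 3.58.1 under R 4.3.3 (a linear model with trended empirical Bayes variances, two-sided). The fit covered the 12215 transcripts that averaged 1 RPKM or more, with Benjamini-Hochberg adjustment over all of them and a threshold of 0.05. The fit was checked on simulated data. For dF4 the value of 1 read was taken as the step (1.67 RPM) at which most low values times length were whole (78.6% of 1413, within 0.1 read). Intervals for dF4 are exact 95% Poisson intervals and cover counting error only. Those of a fold take the wt mean as exact and leave out the spread and counting error of wt. The step was not resolved in the other libraries. Motifs were searched in RefSeq windows on GRCm38.p6, while expression values rest on mm9.

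Genes that averaged 1 RPKM or more were named with every library's value or, for a few low ones, a range over libraries. Up to 4 genes from each list were named by their calls and largest differences. A few more were named for their role after their values were seen (Fermt1, Fermt2, Fermt3, Ctnna1, Ctnnb1, Sirpa, Icam1, Thbs1, Tns3, Pf4, Gp5, Gp6, Gp9, Clec9a, H2-Ab1, Cd74 and Ciita). Alternatives were other pseudocounts, filters, scalings and transcripts, robust variances, a replicate block and leaving out each library. The genes, the lists and the tests were chosen with earlier results of these data known.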

Additional observations from a re-analysis of the deposited data

How the results depend on the processing

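Over all transcripts, limma called 0 between dF1 and wt (380 higher and 495 lower at an unadjusted p under 0.05), but 245 with no filter, 25 with the filter at 5 RPKM and 33 with robust variances. Of the adhesion genes it called 1 (Tns1) at 5 RPKM and 1 (Tns1) with robust variances, and 0 under the other settings run. Leaving out a library gave 0 for both counts, in fits whose lone library is assumed to vary like the other group, and a median of the adhesion genes from -0.046 to 0.147. With the replicate block both counts were 0 and the median was 0.074, and the block changed no call. The deviations of same-numbered libraries correlated at 0.305, but with 2 pairs the libraries share only a number.

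Single genes, most of them near 0 in the main fit, changed sign in dF1 when a library was left out. Over the 4 such fits the differences ran as follows, from lowest to highest: Itgal -0.285 to 0.091, Itga4 -0.346 to 0.116, Cdh1 -0.046 to 0.326, Itgb2 -0.049 to 0.354, Itgb1 -0.209 to 0.486, Itgb2l -1.044 to 0.278, Cd47 -0.059 to 0.147, Itgav -0.126 to 0.033, Itga5 -0.326 to 0.075, Itgb5 -0.146 to 0.294. The main difference of Itgb2l was not near 0, at -0.383 (SE 0.525), with wt libraries at 0.8 and 2.4 RPKM and dF1 libraries at 0.2 and 2. The cause of the sign changes was not tested.

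In dF4, 7 genes were higher and 5 lower. At a distance of at least 2 from both wt libraries 3 were lower. With the filter on the wt mean 4 were higher and the median was -0.29. Under the other settings 5 to 9 were higher and 4 to 6 lower. Without wt replicate 2, Cd47 was added to the lower genes. The low depth of dF4 limits Itgax, Cdh1, Ptk2 and Itga2, which rest on 1 to 6 reads there.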
